A study of Mus musculus with 36 samples.

Results

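This account concerns how the liver response to a DDC diet differed from the response to cyclosporin A after 7 days, and which genes moved in both. For every gene the DDC7 effect (DDC7 minus CTLD) was set against the CsA7 effect (CsA7 minus VEHICLE), and the model difference is the DDC7 effect minus the CsA7 effect. All effects are differences of mean log2(normalized count + 1) and carry a standard error. Calls rest on limma with Benjamini-Hochberg adjustment, at an adjusted p below 0.05. Of 29546 genes in the table, 11616 reached a normalized count of 10 in 4 or more of the 16 libraries and were tested. The genes described in most detail are the 351 that were called in both effects. DDC7 mice were C57BL/6 mice fed 3,5-diethoxycarbonyl-1,4-dihydrocollidine (DDC) at 0.1% of the diet by weight for 7 days, and CTLD mice ate control diet. CsA7 mice were C57BL/6 mice gavaged with 15 mg/kg cyclosporin A in olive oil and sampled at 7 days, and VEHICLE mice were gavaged with olive oil. Each group had 4 mice, and no day is given for the controls. The labels name no age, sex or hour of collection. Mice with bile duct ligation (BDL7) or sham surgery (SHAM), and 28-day groups, are used at the end. RNA came from pieces of whole liver. A lower value in such tissue can come from fewer cells of a type or from less RNA per cell, and these cannot be told apart.

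DDC inhibits the enzyme that puts iron into heme, so that porphyrin builds up, plugs small bile ducts and sets off growth of duct cells and scarring around them. Cyclosporin A binds cyclophilin and blocks the phosphatase calcineurin, and in the liver it also blocks the bile salt export pump of the canaliculus directly. Both agents are used to model cholestasis, the failure of bile flow. The secretory pathway, the circadian clock and lipid synthesis are described for some of the genes that moved in both models. Of the 351 such genes, 62 were in any of the gene lists used and 289 were in none. Hepatocytes secrete most plasma proteins, which fold in the endoplasmic reticulum (ER) with the help of chaperones. The clock is a loop in which BMAL1 and its partners activate the Per, Cry and Rev-erb genes, whose proteins then shut their own activators down. Its output factors DBP, TEF and HLF bind the D-box and are opposed there by NFIL3.

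Sequencing gave 2640463 to 3450091 reads in DDC7, 2081093 to 2912971 in CTLD, 2976745 to 3770267 in CsA7 and 2431684 to 3353429 in VEHICLE libraries. VEHICLE replicates 1 and 2 stood apart from replicates 3 and 4: the summed normalized count of 25 acute-phase genes was 126538 and 86227 in them, against 44906 and 48019.6 in the other VEHICLE libraries (48697 to 57103 in DDC7, 42623 to 50163 in CTLD and 42902 to 46136 in CsA7). Called values that ended or moved by over 1.5 times without them are given in both ways. Scaling by total counts in place of the authors' factors moved the median effect of all genes by 0.35 in DDC7, 0.13 in CsA7 and 0.21 in the model difference, and 80.4% of DDC7 calls, 81% of CsA7 calls and 72.1% of model differences were then higher, against 49.7%, 47.2% and 47.7% as deposited. The 16 hepatocyte markers summed to 82276 to 103207 in DDC7, against 130779 to 164331 in CTLD, and to 116531 to 133429 in CsA7, against 135631 to 157669 in VEHICLE. The 16 cholangiocyte markers summed to 2257 to 2871 in DDC7, against 1047 to 1517 in CTLD, and to 667 to 1021 in CsA7, against 924 to 1416 in VEHICLE. The 17 monocyte and macrophage markers summed to 3547 to 4535 in DDC7, against 839 to 886 in CTLD, while the CsA7 range of 688 to 1109 overlapped the VEHICLE range of 787 to 1279. Their part in the results below was not tested. Of the defining markers, Cldn4 had no read in CsA7, and Ly6g and Mpo, which mark neutrophils, had none in any of the 4 groups.

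The DDC diet moved far more genes than cyclosporin did. In DDC7, 2791 genes were higher than in CTLD (24.0% of those tested) and 2830 were lower (24.4%). In CsA7, 253 genes were higher than in VEHICLE (2.18%) and 283 were lower (2.44%). Counts over gene lists below are to be read against these shares. The median size of an effect over all genes was 0.42 in DDC7 and 0.18 in CsA7 on the log2 scale. The model difference was called for 3288 genes (28.3%), of which 1570 were higher (13.5%) and 1718 lower (14.8%) in the DDC7 effect. Of these, 2890 were called in the DDC7 effect alone, 94 in the CsA7 effect alone and 166 in neither effect. Levels in CTLD and VEHICLE differed for 8 genes (0.0689%) by limma at the same threshold, for 26 by DESeq2 on recovered reads and for 5 by edgeR, and 1059 genes had an unadjusted p under 0.05.

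Most genes that responded to cyclosporin also responded to DDC. In all, 48.4% of the genes tested were called in DDC7 and 4.61% in CsA7. The 351 genes called in both were 6.24% of the DDC7 calls and 65.5% of the CsA7 calls. Their directions were the same for 288 genes (2.48% of those tested) and opposite for 63 (0.542%). Of the same-direction genes, 112 were higher in both models and 176 were lower in both. With total-count scaling 448 were higher in both and 78 lower in both, so the balance of these classes turned with the scaling. Of the opposite genes, 20 were higher in DDC7 and lower in CsA7, and 43 were lower in DDC7 and higher in CsA7. Of the 253 genes higher in CsA7, 44.3% were higher in DDC7 and 17% were lower there. Of the 283 genes lower in CsA7, 62.2% were lower in DDC7 and 7.07% were higher there. The treated and control libraries were apart in both models for 84 of the 112, 144 of the 176, 14 of the 20 and 29 of the 43 genes. Choosing genes by calls in both effects favours such separation, and the share over all genes tested was not computed. At the edge of the set, Sh2d4a (CsA7 effect 0.98, adjusted p = 0.0497) was just inside and Anp32b (0.37, adjusted p = 0.05) just outside. CsA7 calls numbered 329 without CsA7 replicate 3, 269 without CsA7 replicate 4 and 345 without VEHICLE replicate 2, against 536 with all libraries. Leaving out CsA7 replicate 3 left 173 same-direction and 39 opposite genes, leaving out CsA7 replicate 4 left 158 and 21, and leaving out VEHICLE replicate 2 left 191 and 31. Without CsA7 replicate 1 the opposite genes numbered 37. The 20 genes higher in DDC7 and lower in CsA7 became 12 without CsA7 replicate 3, 5 without CsA7 replicate 4, 8 without VEHICLE replicate 2 and 8 without VEHICLE replicates 1 and 2. In the same order the 43 of the other opposite class became 27, 16, 23 and 24. Without both VEHICLE replicates 1 and 2, 242 genes moved in the same direction and 32 in opposite directions, and 171 of the 351 were still in the set.

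**Figure D1:**
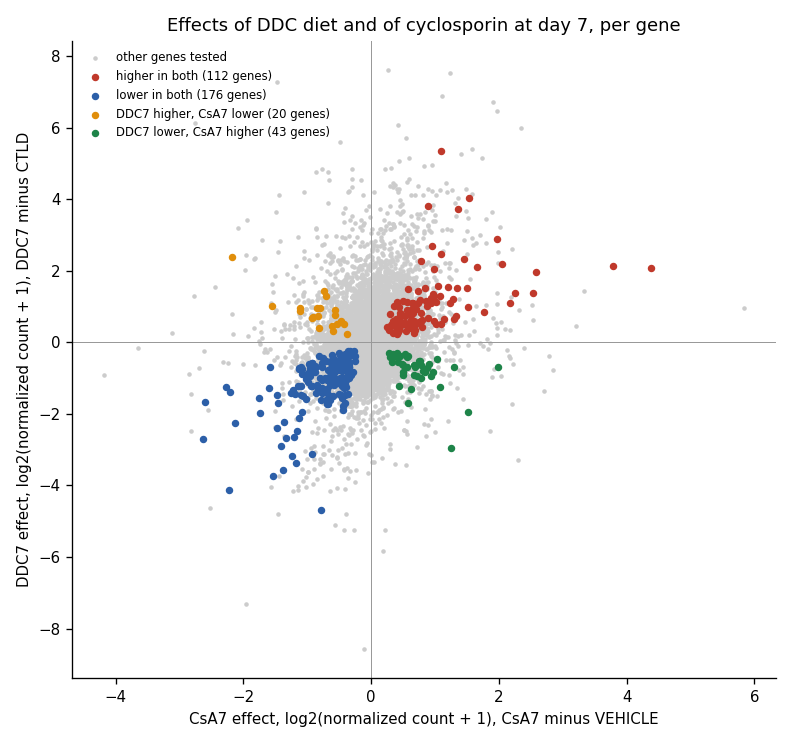
Each point is a gene, with the CsA7 effect on the horizontal axis and the DDC7 effect on the vertical axis, both as differences of mean log2(normalized count + 1). The 112 genes higher in both, 176 lower in both, 20 higher in DDC7 and lower in CsA7, and 43 lower in DDC7 and higher in CsA7 are coloured, and the other genes tested are grey.

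Chaperones of the endoplasmic reticulum fell in both models. Of 19 genes in the list of ER chaperones and stress genes, 19 were lower in DDC7 and 14 in CsA7, and 0 were higher in either, against 24.4% and 2.44% of all genes lower. The median effect was -1.10 in DDC7 and -0.55 in CsA7, against 0.01 and 0.00 for all genes tested. With total-count scaling 14 were lower in DDC7 and 13 in CsA7. In CsA7, 12 to 14 were lower when 1 VEHICLE library was left out and 10 without VEHICLE replicates 1 and 2. None of the 19 differed between CTLD and VEHICLE, by limma at the same threshold.

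The start regions of 3 of these genes are shown because they hold the ER stress element, the letters CCAAT and CCACG with 9 open bases between them, on either strand, which the unfolded protein response factor ATF6 is known to bind together with NF-Y. The windows run from 250 bases before to 50 after the RefSeq start on GRCm38.p6, 5′ to 3′ along the gene, with the element in capitals. They are chr2:34771840-34772139 (+) for Hspa5, chr15:88819396-88819695 (+) for Creld2 and chr10:86705395-86705694 (-) for Hsp90b1.
Hspa5: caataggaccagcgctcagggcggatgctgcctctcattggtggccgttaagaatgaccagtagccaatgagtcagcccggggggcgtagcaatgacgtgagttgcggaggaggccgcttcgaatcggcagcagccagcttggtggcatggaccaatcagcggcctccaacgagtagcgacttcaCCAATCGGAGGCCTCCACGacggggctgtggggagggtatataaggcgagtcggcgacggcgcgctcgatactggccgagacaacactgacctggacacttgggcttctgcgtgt
Creld2: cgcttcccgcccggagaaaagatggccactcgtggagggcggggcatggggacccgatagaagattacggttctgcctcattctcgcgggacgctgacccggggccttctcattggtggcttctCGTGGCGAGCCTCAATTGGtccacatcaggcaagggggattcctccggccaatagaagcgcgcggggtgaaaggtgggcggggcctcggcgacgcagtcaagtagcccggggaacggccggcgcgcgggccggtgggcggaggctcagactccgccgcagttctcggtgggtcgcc
Hsp90b1: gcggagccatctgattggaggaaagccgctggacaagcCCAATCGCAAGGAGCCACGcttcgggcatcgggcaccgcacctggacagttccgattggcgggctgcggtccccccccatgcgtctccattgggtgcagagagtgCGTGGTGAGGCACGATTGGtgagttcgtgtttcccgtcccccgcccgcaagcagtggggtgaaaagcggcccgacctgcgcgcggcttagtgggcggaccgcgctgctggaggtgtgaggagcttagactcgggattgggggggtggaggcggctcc
The element was in 0.119% of all 32851 windows. Of the 17 listed genes that had a window, 7 held it. These were 5 of 12 that were lower in both models, with Dnajc3 and Pdia6 beside the 3 above, and 2 of 5 that were not, Calr and Canx. Among all 133 genes lower in both models that had a window, 7 held it, and the other 2 were Syvn1 and Derl3. Of all 27025 genes with a window, which take in genes not tested, 0.137% held it. A match is a description of these letters and not of binding.

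Hspa5 (ENSMUSG00000026864) encodes BiP, the main Hsp70 chaperone of the ER lumen. Its normalized counts were 3279.5, 3612, 2409 and 2693 in DDC7, against 5290.2, 7249.9, 8898 and 6835 in CTLD. They were 2905, 3561, 2681 and 3173 in CsA7, against 4849, 6383, 6372 and 6132 in VEHICLE. All treated libraries lay below all of their controls in both models, and the effects were -1.23 ± 0.15 (adjusted p = 5.5e-06) in DDC7 and -0.94 ± 0.15 (adjusted p = 0.00213) in CsA7. Sdf2l1 (ENSMUSG00000022769), a cofactor that keeps unfolded proteins bound to BiP, had the largest DDC7 effect of the list. Its normalized counts were 98, 79.1, 45.8 and 58.8 in DDC7, against 278, 308, 506 and 373 in CTLD, and 119, 125, 86.6 and 113 in CsA7, against 240.5, 428, 294 and 289.6 in VEHICLE. The groups again did not overlap, with effects of -2.38 ± 0.24 (adjusted p = 1.14e-06) in DDC7 and -1.47 ± 0.24 (adjusted p = 0.00306) in CsA7. The model difference of -0.91 ± 0.34 missed the threshold (adjusted p = 0.0563) but passed without DDC7 replicate 1, CTLD replicate 1, CsA7 replicate 3 or VEHICLE replicate 2 (-1.09 to -1.02).

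Creld2 (ENSMUSG00000023272), an ER protein induced by unfolded proteins, had normalized counts of 78.4, 105, 45.8 and 43.2 in DDC7, against 132, 225, 474 and 284 in CTLD. It had 55.7, 94, 67.4 and 73.9 in CsA7, against 261, 336, 190.4 and 204 in VEHICLE. The effects were -1.97 ± 0.37 (adjusted p = 0.000685) in DDC7 and -1.74 ± 0.37 (adjusted p = 0.0195) in CsA7, and the model difference of -0.22 ± 0.52 was not called (adjusted p = 0.791). The CsA7 call ended without CsA7 replicate 1, 3 or 4 or VEHICLE replicate 2 (-1.76 to -1.58). Sel1l (ENSMUSG00000020964), the adaptor of the ligase that clears misfolded ER proteins, had 428, 443, 434 and 424 in DDC7, against 931, 1149, 1187 and 991 in CTLD. It had 569, 673, 560.3 and 641 in CsA7, against 879, 1136, 973 and 971 in VEHICLE. Here too no treated library reached a control value. Its effect was -1.29 ± 0.09 (adjusted p = 1.01e-09) in DDC7 and -0.69 ± 0.09 (adjusted p = 0.000165) in CsA7, and the model difference of -0.60 ± 0.13 (adjusted p = 0.00194) was called. Without the pair of VEHICLE replicates 1 and 2, the CsA7 effect of Creld2 (-1.45) had no call.

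A larger fall in DDC7 than in CsA7 was called for 8 of the 19 genes, against 14.8% of all genes with a lower model difference. With total-count scaling it was called for 3, and the median model difference of the list was -0.30, against -0.52 as deposited. Pdia3, a disulfide isomerase that folds glycoproteins, had effects of -1.05 ± 0.09 (adjusted p = 2.65e-08) in DDC7 and -0.40 ± 0.09 (adjusted p = 0.0192) in CsA7, with a model difference of -0.65 ± 0.13 (adjusted p = 0.00125). Its CsA7 call ended without CsA7 replicate 4 or VEHICLE replicate 2 (-0.39 to -0.35). Hsp90b1, the Hsp90 of the ER, had effects of -1.10 ± 0.11 (adjusted p = 1.29e-07) and -0.54 ± 0.11 (adjusted p = 0.00794) in the same order, and a model difference of -0.56 ± 0.16 (adjusted p = 0.0117) that missed the threshold with total-count scaling (-0.34). With quantile normalization limma called neither the CsA7 effect of Hsp90b1 (-0.32, adjusted p = 0.174) nor its model difference (-0.22, adjusted p = 0.371). Calr, the lectin chaperone calreticulin, fell in DDC7 with an effect of -1.15 ± 0.11 (adjusted p = 3.35e-08). In CsA7 its effect of -0.35 ± 0.11 missed the threshold (adjusted p = 0.0651), and it passed without CsA7 replicate 2 or VEHICLE replicate 1 (-0.42 to -0.41). Outside the list, and chosen after the values were seen, Syvn1, the ligase that Sel1l serves, fell by effects of -1.27 ± 0.20 (adjusted p = 6.87e-05) and -1.60 ± 0.20 (adjusted p = 0.000267). Derl3, a channel component of the same degradation route, fell by effects of -2.71 ± 0.43 (adjusted p = 2.87e-05) and -2.63 ± 0.43 (adjusted p = 0.00117). A fit without VEHICLE replicates 1 and 2 did not call the CsA7 effect of Pdia3 (-0.38). Total-count scaling ended the call of the CsA7 effect of Pdia3 (-0.27).

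Genes of the circadian clock also moved in both models, with members on both sides. Of 22 clock genes, 7 were higher and 7 lower in DDC7, and 10 were higher and 6 lower in CsA7. Over all genes, 24.0% were higher and 24.4% lower in DDC7, which is close to the DDC7 share of the clock genes, and 2.18% were higher and 2.44% lower in CsA7. With total-count scaling 10 clock genes were higher and 3 lower in DDC7, and 13 higher and 6 lower in CsA7. Ciart, Nampt, Nr1d2, Per3, Tef and Wee1 were higher in both models, Clock, Cry1 and Nfil3 were among those lower in both, and Hlf was lower in DDC7 and higher in CsA7. None of the 22 differed between CTLD and VEHICLE by limma, with effects of CTLD minus VEHICLE between -1.23 and 0.56. Without VEHICLE replicates 1 and 2, 8 were higher and 6 lower in CsA7. Clock genes vary with the hour, and whether the groups were collected at different hours cannot be told apart from the treatments.

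Start regions of 3 clock genes are shown for the element each holds. They are chr4:151044616-151044915 (-) for Per3, chr15:81802423-81802722 (+) for Tef and chr13:52980990-52981289 (-) for Nfil3, from RefSeq on GRCm38.p6, from 250 bases before to 50 after the start. Capitals mark the D-box TTATGTAA, bound by DBP, TEF and HLF and by NFIL3, in Per3, the E-box CACGTG, bound by CLOCK and BMAL1, in Tef, and the ROR element TAGGTCA, bound by Rev-erb proteins, in Nfil3, on either strand.
Per3: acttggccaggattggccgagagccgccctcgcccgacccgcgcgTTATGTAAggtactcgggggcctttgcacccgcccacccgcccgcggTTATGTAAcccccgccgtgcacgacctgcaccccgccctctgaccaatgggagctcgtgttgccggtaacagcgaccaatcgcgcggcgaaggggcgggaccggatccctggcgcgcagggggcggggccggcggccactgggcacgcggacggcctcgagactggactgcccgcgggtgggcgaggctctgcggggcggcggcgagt
Tef: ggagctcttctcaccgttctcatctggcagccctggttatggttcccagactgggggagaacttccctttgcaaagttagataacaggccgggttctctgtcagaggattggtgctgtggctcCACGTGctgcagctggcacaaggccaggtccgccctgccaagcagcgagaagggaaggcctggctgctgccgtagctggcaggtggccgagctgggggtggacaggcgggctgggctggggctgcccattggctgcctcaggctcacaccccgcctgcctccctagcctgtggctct
Nfil3: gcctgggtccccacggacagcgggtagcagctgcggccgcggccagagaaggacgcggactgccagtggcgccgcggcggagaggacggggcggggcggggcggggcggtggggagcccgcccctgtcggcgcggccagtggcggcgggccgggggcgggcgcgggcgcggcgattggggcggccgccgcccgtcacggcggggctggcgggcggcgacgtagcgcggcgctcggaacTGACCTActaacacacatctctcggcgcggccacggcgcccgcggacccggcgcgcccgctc
The D-box was in 0.938%, the E-box in 7.15% and the ROR element in 2.61% of all windows. Of the 93 genes higher in both models that had a window, 20 held the E-box (21.5%), against 8.09% of all 27025 genes with a window. Of the 133 genes lower in both, 15 held it (11.3%). The background of all genes with a window takes in genes that were not tested, and the share among tested genes alone was not computed. The other elements were near their background: the D-box was in 1 of the 93 and 0 of the 133, against 1.11% of all genes with a window, and the ROR element in 2 (2.15%) and 4 (3.01%), against 2.97%.

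Among the repressors of the loop, Nr1d2 (ENSMUSG00000021775), which encodes REV-ERB-beta, had normalized counts of 203, 210.2, 186 and 164 in DDC7, against 77, 69.6, 83.5 and 62.2 in CTLD. It had 384, 302, 483 and 467 in CsA7, against 88.5, 85.1, 63.5 and 101 in VEHICLE. All treated libraries were above their controls, by effects of 1.37 ± 0.15 (adjusted p = 4.35e-07) in DDC7 and 2.26 ± 0.15 (adjusted p = 2.76e-08) in CsA7. The rise was smaller in DDC7, with a model difference of -0.88 ± 0.22 (adjusted p = 0.00461). With all 36 libraries in the limma fit that difference was not called (adjusted p = 0.103). Per3 (ENSMUSG00000028957), a period protein, had low counts of 8.71, 10.4, 9.97 and 8.5 in DDC7, against 4.05, 1.62, 2.61 and 4.36 in CTLD. It had 81, 23.5, 49.8 and 85.3 in CsA7, against 5.98, 5.55, 15.3 and 9.39 in VEHICLE. Neither pair of groups overlapped, with effects of 1.37 ± 0.39 (adjusted p = 0.00621) in DDC7 and 2.54 ± 0.39 (adjusted p = 0.000668) in CsA7. Cry1 (ENSMUSG00000020038), the main partner of the period proteins, moved the other way. Its counts were 42.1, 20.8, 56.8 and 53.8 in DDC7, against 118, 141, 109.6 and 116 in CTLD, and 25.3, 39.5, 30.7 and 39.6 in CsA7, against 138, 96.3, 112 and 115 in VEHICLE. All treated libraries were below their controls, by effects of -1.55 ± 0.24 (adjusted p = 3.1e-05) and -1.75 ± 0.24 (adjusted p = 0.000293) in the same order of models.

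The output factors split. Tef (ENSMUSG00000022389), an activator at the D-box, had normalized counts of 154, 157, 172 and 128 in DDC7, against 74, 82.6, 69.2 and 56.7 in CTLD. It had 354, 235, 412 and 468 in CsA7, against 56.2, 96.3, 83.2 and 83.1 in VEHICLE. The groups were apart in both models, and the effects of 1.11 ± 0.19 (adjusted p = 0.000105) in DDC7 and 2.17 ± 0.19 (adjusted p = 1.93e-06) in CsA7 differed from each other by -1.06 ± 0.27 (adjusted p = 0.00639). Nfil3 (ENSMUSG00000056749), the repressor at the same element, had counts of 45.7, 40.0, 74.7 and 68.7 in DDC7, against 184, 179.7, 155 and 201 in CTLD. It had 19.2, 27.3, 36 and 28.9 in CsA7, against 221, 157, 130.2 and 184 in VEHICLE. It fell in both models without overlap, by effects of -1.68 ± 0.21 (adjusted p = 2.5e-06) and -2.60 ± 0.21 (adjusted p = 6.8e-07), less in DDC7 than in CsA7. That difference of 0.92 ± 0.29 (adjusted p = 0.0241) lost its call without DDC7 replicate 3 or 4, CTLD replicate 3, CsA7 replicate 1 or VEHICLE replicate 1 (0.76 to 0.85). It also lost its call with all 36 libraries in the limma fit (adjusted p = 0.182). Hlf (ENSMUSG00000003949), a further D-box activator, had 216, 164, 241 and 194 in DDC7, against 298, 277, 428 and 308 in CTLD. It had 436, 429, 307 and 492 in CsA7, against 236, 292, 279 and 304 in VEHICLE. The effect was -0.68 ± 0.15 (adjusted p = 0.00134) in DDC7 and 0.57 ± 0.15 (adjusted p = 0.0406) in CsA7, with a model difference of -1.24 ± 0.22 (adjusted p = 0.000369). Its CsA7 call ended without DDC7 replicate 1 or 4, CTLD replicate 4, CsA7 replicate 1, 2 or 4 or VEHICLE replicate 1, 2, 3 or 4 (0.48 to 0.61). Without the pair of VEHICLE replicates 1 and 2, the model difference of Nfil3 (0.79) and the CsA7 effect of Hlf (0.49) had no call. With total-count scaling the call was lost for the DDC7 effect of Hlf (-0.33).

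Dbp, Arntl and Npas2 were called in CsA7 and not in DDC7 by limma with the 16 libraries as deposited. With total-count scaling limma also called the DDC7 rise of Dbp (1.23, adjusted p = 0.0387). Dbp (ENSMUSG00000059824), the most rhythmic of the output factors, had 7.26, 15.2, 4.98 and 3.54 in DDC7, against 5.07, 3.24, 1.3 and 3.27 in CTLD. It had 247, 89.3, 297 and 408 in CsA7, against 1.2, 6.48, 3.28 and 2.68 in VEHICLE. The CsA7 libraries were all above VEHICLE (effect 5.83 ± 0.48, adjusted p = 7.35e-07), while the DDC7 effect of 0.96 ± 0.48 was not called (adjusted p = 0.106), and the model difference was -4.87 ± 0.68 (adjusted p = 3.69e-05). Arntl (ENSMUSG00000055116), which encodes BMAL1, had 105, 83.9, 139 and 138 in DDC7, against 160.2, 107, 107 and 141 in CTLD. It had 22.3, 38.6, 3.07 and 2.29 in CsA7, against 117, 89.8, 163 and 176 in VEHICLE. DDC7 and CTLD overlapped (effect -0.15 ± 0.66, adjusted p = 0.873), CsA7 lay below VEHICLE (effect -3.66 ± 0.66, adjusted p = 0.00905), and the model difference was 3.51 ± 0.94 (adjusted p = 0.0144). The Arntl CsA7 call was lost in limma with each model fitted apart (adjusted p = 0.0998) and with a block on title numbers (-3.26, adjusted p = 0.0964). That block also ended the call of its model difference (3.10, adjusted p = 0.0705). Npas2, a partner of BMAL1 in place of CLOCK, had 1.01, 2.82, 0 and 0 in CsA7, against 26.3, 28.7, 33.9 and 28.2 in VEHICLE, with a CsA7 effect of -4.18 ± 0.38 (adjusted p = 1.61e-06) and a model difference of 3.27 ± 0.54 (adjusted p = 0.000168). Its DDC7 effect of -0.91 ± 0.38 missed the threshold (adjusted p = 0.055) and passed without DDC7 replicate 4 or CsA7 replicate 2, 3 or 4 (-1.15 to -0.91). The Npas2 fall in DDC7 was also called by edgeR (-0.84, adjusted p = 0.0324) and DESeq2 (-0.85, adjusted p = 0.0239) on recovered reads, with each model fitted apart (adjusted p = 0.0138), with quantile normalization (-1.13, adjusted p = 0.0193), with a pseudocount of 5 (-0.77, adjusted p = 0.0098) and with a block on title numbers (adjusted p = 0.0439).

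Wee1 (ENSMUSG00000031016), a kinase that holds back mitosis and is driven by the clock, had the largest smaller effect of the genes higher in both models that the rule for named genes took. Its counts were 88.6, 121, 75.7 and 110.5 in DDC7, against 18.2, 13, 39.1 and 18.5 in CTLD, and 71.9, 38.6, 202 and 129 in CsA7, against 15.6, 28.7, 29.6 and 16.1 in VEHICLE. The groups were apart, by effects of 2.20 ± 0.45 (adjusted p = 0.000997) in DDC7 and 2.05 ± 0.45 (adjusted p = 0.0196) in CsA7, and the CsA7 call ended without CsA7 replicate 4 or VEHICLE replicate 4 (1.89 to 1.92). Per2, a period protein, fell in DDC7 (effect -1.49 ± 0.34, adjusted p = 0.00181) and had a CsA7 effect of 0.95 ± 0.34 that was not called (adjusted p = 0.128), with a model difference of -2.45 ± 0.48 (adjusted p = 0.00145). Further shared clock genes were chosen after their values were seen. Ciart, a repressor of the CLOCK and BMAL1 pair, rose by 2.15 ± 0.65 (adjusted p = 0.0104) in DDC7 and 3.78 ± 0.65 (adjusted p = 0.00215) in CsA7, and its DDC7 call ended without DDC7 replicate 2 (1.69). Nampt, the rate-limiting enzyme of NAD salvage, rose by 1.1 ± 0.17 (adjusted p = 5.97e-05) in DDC7 and 0.65 ± 0.17 (adjusted p = 0.0393) in CsA7, and its CsA7 call ended without DDC7 replicate 2 or 3, CsA7 replicate 1, 3 or 4 or VEHICLE replicate 1, 2 or 3 (0.47 to 0.69). Clock, the partner of BMAL1, had effects of -0.39 ± 0.14 (adjusted p = 0.029) and -0.82 ± 0.14 (adjusted p = 0.00269), and its DDC7 call ended with total-count scaling (-0.05) and without DDC7 replicate 1, 2 or 4 or CTLD replicate 1 or 4 (-0.39 to -0.33). Leaving out VEHICLE replicates 1 and 2 ended the call of the CsA7 effect of Wee1 (2.03) and the CsA7 effect of Nampt (0.56).

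**Figure D2:**
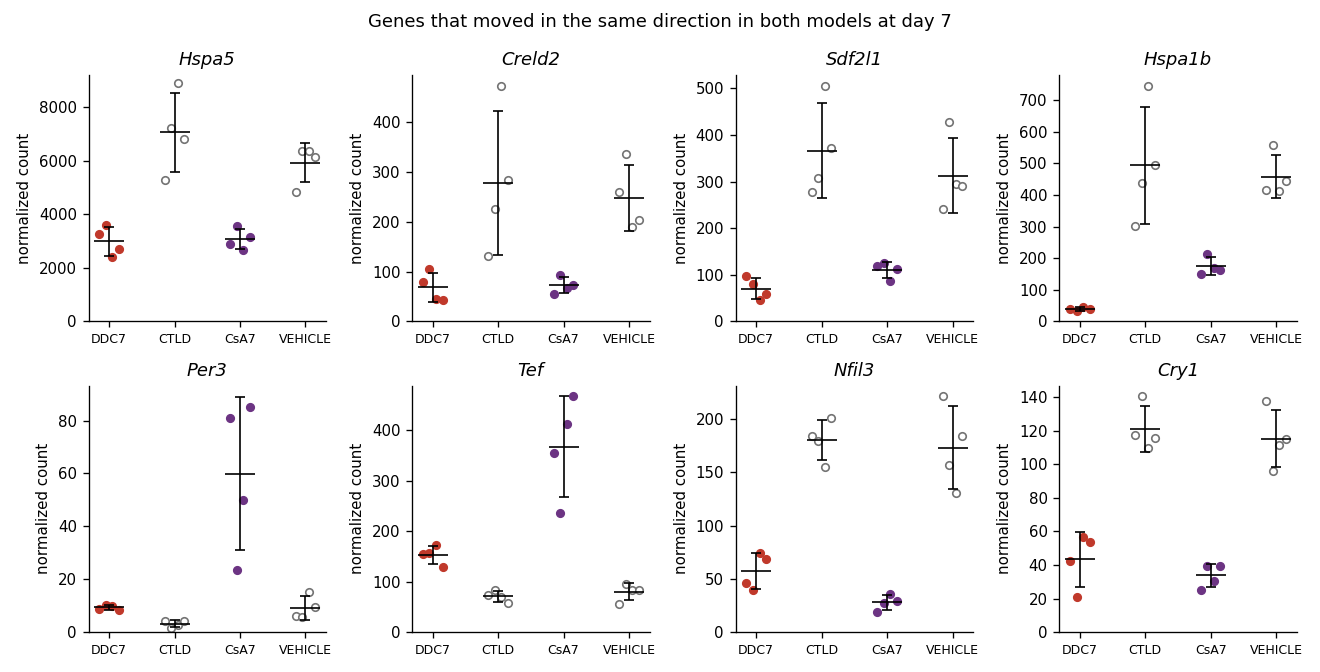
Normalized counts of 8 genes in the 4 libraries of DDC7, CTLD, CsA7 and VEHICLE; filled points are treated mice, open points are controls, and bars are the mean ± SD. The ER genes Hspa5, Creld2 and Sdf2l1, the heat-shock gene Hspa1b and the clock genes Nfil3 and Cry1 lie lower, and Per3 and Tef higher, in both treated groups than in their controls, with no overlap.

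Transporters were among the genes that rose in both models. Of 9 canalicular exporters, 5 were higher and 2 lower in DDC7 and 4 were higher and 0 lower in CsA7, against 24.0% of all genes higher and 24.4% lower in DDC7 and 2.18% higher in CsA7. The same 4, Abcb1a, Abcg5, Abcg8 and Abcc2, were higher in both models. Abcb1a (ENSMUSG00000040584) encodes a P-glycoprotein, which pumps cyclosporin and many other compounds. Its counts were 107, 145, 128 and 130.3 in DDC7, against 6.08, 14.6, 9.13 and 6.55 in CTLD, and 28.3, 11.3, 45.2 and 27.4 in CsA7, against 12, 10.2, 10.9 and 5.36 in VEHICLE. DDC7 was far above CTLD, while CsA7 replicate 2 lay within the VEHICLE range. The effects were 3.74 ± 0.33 (adjusted p = 3.43e-08) in DDC7 and 1.36 ± 0.33 (adjusted p = 0.0249) in CsA7, the model difference was 2.38 ± 0.47 (adjusted p = 0.00102), and the CsA7 call ended without CsA7 replicate 1, 3 or 4 or VEHICLE replicate 4 (1.08 to 1.32). Abcg8 (ENSMUSG00000024254), which with Abcg5 secretes cholesterol into bile, had 119, 113, 111 and 87.1 in DDC7, against 76, 85.8, 58.7 and 81.8 in CTLD. It had 177, 198, 207 and 251 in CsA7, against 110.1, 105, 71.1 and 107 in VEHICLE. The groups were apart, by effects of 0.51 ± 0.16 (adjusted p = 0.0106) in DDC7 and 1.09 ± 0.16 (adjusted p = 0.000342) in CsA7. Abcg5, named after its values were seen, had effects of 1.14 ± 0.22 (adjusted p = 0.00025) and 1.02 ± 0.22 (adjusted p = 0.0103). Abcc2, the conjugate export pump, named in the same way, had effects of 0.45 ± 0.09 (adjusted p = 0.000283) and 0.37 ± 0.09 (adjusted p = 0.0189), and its CsA7 call ended without CsA7 replicate 3 or 4 or VEHICLE replicate 3 (0.31 to 0.32). The bile salt pump Abcb11, a direct target of cyclosporin, was called in neither, with effects of -0.17 ± 0.11 and -0.02 ± 0.11 (adjusted p = 0.226 and 0.944). With VEHICLE replicates 1 and 2 left out, the call was lost for the CsA7 effect of Abcc2 (0.37).

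Slco1a4 (ENSMUSG00000030237), an uptake transporter of organic anions, was higher in both models and more so in DDC7. It had 656, 541, 898 and 594 in DDC7, against 166, 115, 84.8 and 124 in CTLD. It had 319.9, 273, 426 and 413 in CsA7, against 129, 152, 201 and 189 in VEHICLE. The effects of 2.46 ± 0.21 (adjusted p = 2.43e-07) and 1.09 ± 0.21 (adjusted p = 0.0101) differed by 1.37 ± 0.30 (adjusted p = 0.00359). It was the member of 8 uptake transporters that rose in both, while 6 of the 8 fell in DDC7 and 1 in CsA7. After VEHICLE replicates 1 and 2 were left out, no call was made for the CsA7 effect of Slco1a4 (0.85).

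Other named genes were higher in both models. Wipf3 (ENSMUSG00000086040), a partner of the actin regulator WASP, had 99.5, 84.7, 73.7 and 103 in DDC7, against 30.4, 30.8, 33.9 and 27.3 in CTLD. It had 79, 83.7, 82.8 and 86.1 in CsA7, against 29.9, 36.1, 29.6 and 33.5 in VEHICLE. The values of the treated groups covered much the same range, and the effects were 1.52 ± 0.14 (adjusted p = 2.76e-08) and 1.34 ± 0.14 (adjusted p = 8.48e-06), with a model difference of 0.18 ± 0.20 (adjusted p = 0.514). Ank3 (ENSMUSG00000069601), ankyrin-G, which ties membrane proteins to the cytoskeleton, had 298, 324, 237 and 219.5 in DDC7, against 126, 107, 133 and 93.8 in CTLD. It had 199, 168, 217 and 203 in CsA7, against 58.6, 75.9, 98.5 and 93.9 in VEHICLE. All treated libraries were above their controls, by effects of 1.22 ± 0.16 (adjusted p = 3.91e-06) and 1.28 ± 0.16 (adjusted p = 0.000102). Epb41l1, a band 4.1 protein that links membrane and cytoskeleton, had effects of 2.32 ± 0.32 (adjusted p = 6.31e-06) and 1.46 ± 0.32 (adjusted p = 0.012) and was low in VEHICLE, at 3.18 ± 1.58 normalized counts (SD, n = 4). Ckap2l, a mitotic spindle protein, had 4.05, 5.64, 32.2 and 3.81 in CsA7, against 2.39, 1.85, 0 and 1.34 in VEHICLE, so that CsA7 replicate 3 carried the mean. Its effects were 2.89 ± 0.53 (adjusted p = 0.000163) and 1.97 ± 0.53 (adjusted p = 0.0377), and the CsA7 call ended without DDC7 replicate 2, CsA7 replicate 3 or VEHICLE replicate 2, 3 or 4 (1.32 to 2.10).

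Where the direction was the same, a difference in size between the models was called for a minority of genes. Of the 112 genes higher in both, the model difference was called positive for 15 and negative for 3, and not called for 94. Of the 176 lower in both, it was called negative for 55, positive for 2 and not called for 119. The DDC7 effect was the larger for 72 of the 112 and 132 of the 176. The medians were 0.82 in DDC7 and 0.67 in CsA7 for the genes higher in both, and -0.95 and -0.64 for those lower in both. The 3 genes that rose more in CsA7 were Nr1d2, Tef and the glucose transporter gene Slc2a2, and the 2 that fell more in CsA7 were Nfil3 and Pnrc1, a nuclear receptor coactivator gene. Slc2a2 had effects of 0.26 ± 0.10 (adjusted p = 0.0318) and 0.67 ± 0.10 (adjusted p = 0.00038), and its DDC7 call ended without DDC7 replicate 1, 2 or 3 or CTLD replicate 1 or 4 (0.21 to 0.25) and its model difference of -0.41 ± 0.14 (adjusted p = 0.0301) without DDC7 replicate 4, CTLD replicate 2 or 3, CsA7 replicate 1 or 4 or VEHICLE replicate 1 (-0.39 to -0.34). Pnrc1 had effects of -0.70 ± 0.17 (adjusted p = 0.00269) and -1.58 ± 0.17 (adjusted p = 5.95e-05), with a model difference of 0.88 ± 0.24 (adjusted p = 0.0116). At the other end, and also chosen after the values were seen, Defb1, an antimicrobial defensin, had effects of 5.36 ± 0.26 (adjusted p = 6.2e-12) and 1.09 ± 0.26 (adjusted p = 0.0209). Its CsA7 call ended without CsA7 replicate 1 or 3 or VEHICLE replicate 3 (0.87 to 1.02). Btc, a growth factor that binds the EGF receptor, had effects of 3.82 ± 0.20 (adjusted p = 2.34e-11) and 0.89 ± 0.20 (adjusted p = 0.0158), and its CsA7 call ended without CsA7 replicate 1 (0.78). Gstm2, a glutathione transferase, had effects of 2.27 ± 0.14 (adjusted p = 2.5e-10) and 0.78 ± 0.14 (adjusted p = 0.00395). A fit without VEHICLE replicates 1 and 2 did not call the model difference of Slc2a2 (-0.30) and the model difference of Pnrc1 (0.68). With total-count scaling the call was lost for the model difference of Slc2a2 (-0.20) and the DDC7 effect of Pnrc1 (-0.35).

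Among genes lower in both outside the ER and the clock, Ppard (ENSMUSG00000002250), a nuclear receptor for fatty acids, had the largest smaller effect by the rule for named genes. Its counts were 20.3, 13.6, 23.9 and 31.2 in DDC7, against 117, 97.1, 96.6 and 112 in CTLD, and 20.2, 14.1, 20.7 and 18.3 in CsA7, against 62.2, 75, 132 and 77.8 in VEHICLE. The treated libraries were far below their controls, by effects of -2.25 ± 0.23 (adjusted p = 1.39e-07) and -2.14 ± 0.23 (adjusted p = 1.41e-05), and the model difference of -0.11 ± 0.33 was not called (adjusted p = 0.834). Hspa1b (ENSMUSG00000090877), an inducible cytosolic Hsp70 with a near-identical copy in Hspa1a whose reads the counting may divide, had 39.9, 32, 45.8 and 39.7 in DDC7, against 302, 437, 745 and 494 in CTLD. It had 149.8, 214, 169 and 164 in CsA7, against 416, 557, 412 and 444 in VEHICLE. It fell in both without overlap, with effects of -3.56 ± 0.21 (adjusted p = 1.36e-09) and -1.39 ± 0.21 (adjusted p = 0.00119), and further in DDC7 (model difference -2.17 ± 0.29, adjusted p = 5.79e-05). With all 36 libraries in the fit its CsA7 call was lost (adjusted p = 0.126). Fam222a, a gene of little-known function, had effects of -1.39 ± 0.26 (adjusted p = 0.000186) and -2.22 ± 0.26 (adjusted p = 4.97e-05).

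Bile acid synthesis and male-biased genes were shared in part. Cyp7b1 (ENSMUSG00000039519), the oxysterol hydroxylase of the acidic bile acid pathway and higher in male than in female mouse liver, had 184, 181, 131 and 140.2 in DDC7, against 704, 1172, 1202 and 1047 in CTLD. It had 452, 635, 199 and 280.3 in CsA7, against 1011, 925, 846 and 825 in VEHICLE. The groups were apart, by effects of -2.68 ± 0.30 (adjusted p = 8.94e-06) and -1.34 ± 0.30 (adjusted p = 0.0247), and the model difference was -1.34 ± 0.42 (adjusted p = 0.0302). The CsA7 call ended without CsA7 replicate 4 or VEHICLE replicate 1 or 2 (-1.32 to -1.22), and the model difference lost its call without DDC7 replicate 3 or 4, CTLD replicate 2 or 3, CsA7 replicate 1 or VEHICLE replicate 3 or 4 (-1.31 to -1.23). Of 16 bile acid synthesis genes, 12 were lower in DDC7 and 3 in CsA7, and all 3 were lower in both. The CsA7 count was 1 without VEHICLE replicate 1 or 2. Cyp8b1, which directs synthesis to cholic acid, fell in DDC7 by an effect of -2.76 ± 0.39 (adjusted p = 7.43e-05) and had a CsA7 effect of -0.62 ± 0.39 (adjusted p = 0.421). Cyp7a1, the rate-limiting enzyme, was called in neither (effects 0.44 ± 0.48 and -0.05 ± 0.48). Of 16 male-biased genes, 16 were lower in DDC7 and 4 in CsA7. In CsA7, 0 of them were lower without VEHICLE replicate 1, without VEHICLE replicate 2 or without both, and 1 without VEHICLE replicate 4. Ugt2b38, a glucuronosyltransferase of a family with close copies, had 6.53, 6.39, 6.98 and 4.96 in DDC7, against 160.2, 168, 202 and 211 in CTLD. The effects were -4.69 ± 0.21 (adjusted p = 2.28e-12) and -0.79 ± 0.21 (adjusted p = 0.0347), and the CsA7 call ended without CsA7 replicate 1, 3 or 4 or VEHICLE replicate 1, 2 or 4 (-0.83 to -0.66). With VEHICLE replicates 1 and 2 left out, the call was lost for the CsA7 effect of Cyp7b1 (-1.23), the model difference of Cyp7b1 (-1.45) and the CsA7 effect of Ugt2b38 (-0.80).

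Lipogenesis genes fell in DDC7, and fewer of them rose in CsA7. Of 16 lipogenesis genes, 0 were higher and 14 lower in DDC7, 5 were higher and 0 lower in CsA7, and the model difference was lower for 15, against 14.8% of all genes. The median effect was -0.88 in DDC7 and 0.57 in CsA7. In CsA7, 3 were higher without VEHICLE replicate 1, 2 or 4 and also without both 1 and 2, where the CsA7 median was 0.41 and 14 had a lower model difference. With total-count scaling 9 were lower in DDC7 and 5 higher in CsA7. None of the 16 differed between CTLD and VEHICLE by limma. Elovl6, Fads2 and Thrsp were called in both models in opposite directions. For all 63 genes of opposite direction the model difference was called too, which the choice of these genes nearly fixes.

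Fads2 (ENSMUSG00000024665), the delta-6 desaturase of polyunsaturated fatty acids, had 677, 785, 542 and 699 in DDC7, against 1242, 1183, 1059.5 and 1172 in CTLD. It had 1528, 1818, 2851 and 1741 in CsA7, against 1072, 1069, 1085 and 1149 in VEHICLE. DDC7 lay below CTLD and CsA7 above VEHICLE with no overlap, by effects of -0.79 ± 0.15 (adjusted p = 0.000249) and 0.82 ± 0.15 (adjusted p = 0.00429). Thrsp (ENSMUSG00000035686), a regulator that accompanies lipogenesis, had 132, 162, 94.7 and 118 in DDC7, against 737, 834, 1373 and 1027 in CTLD. It had 2701, 1125, 1711 and 2269 in CsA7, against 580.2, 654, 1223 and 782 in VEHICLE. DDC7 was far below CTLD, and CsA7 replicate 2 lay within the VEHICLE range. The effects were -2.95 ± 0.31 (adjusted p = 5.1e-06) and 1.25 ± 0.31 (adjusted p = 0.0358), with a model difference of -4.20 ± 0.43 (adjusted p = 1.99e-05), and the CsA7 call ended without DDC7 replicate 1, CsA7 replicate 1, 3 or 4 or VEHICLE replicate 1, 2 or 4 (1.07 to 1.29). Without the pair of VEHICLE replicates 1 and 2, the CsA7 effect of Thrsp (0.92) had no call.

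Elovl6 (ENSMUSG00000041220), which elongates palmitate, had 287, 341, 270.1 and 280.5 in DDC7, against 442, 399.9, 405 and 368 in CTLD. It had 845, 664, 892 and 1393 in CsA7, against 456, 389, 491 and 461 in VEHICLE. The effects were -0.46 ± 0.16 (adjusted p = 0.0248) and 1.03 ± 0.16 (adjusted p = 0.00129), and the model difference was -1.48 ± 0.22 (adjusted p = 0.000131). Its DDC7 call ended with total-count scaling (-0.11) and without DDC7 replicate 1, 3 or 4 or CTLD replicate 1 or 3 (-0.45 to -0.41). Elovl2, an elongase of polyunsaturated fatty acids that was named after its values were seen, had effects of -0.91 ± 0.13 (adjusted p = 1.1e-05) and 0.50 ± 0.13 (adjusted p = 0.0292), and its CsA7 call ended without CsA7 replicate 3 or 4 or VEHICLE replicate 1, 2 or 3 (0.39 to 0.51). Acacb, the acetyl-CoA carboxylase of the mitochondrial surface, fell in DDC7 (effect -1.66 ± 0.23, adjusted p = 1.91e-05), had a CsA7 effect of 0.55 ± 0.23 that was not called (adjusted p = 0.198), and had a model difference of -2.20 ± 0.32 (adjusted p = 0.00012). Nsdhl, a late enzyme of cholesterol synthesis, had effects of -0.32 ± 0.12 (adjusted p = 0.0289) and 0.53 ± 0.12 (adjusted p = 0.0118). Its DDC7 effect was 0.03 with total-count scaling, and the call also ended without DDC7 replicate 1, 3 or 4 or CTLD replicate 1 or 2 (-0.30 to -0.26). A fit without VEHICLE replicates 1 and 2 did not call the CsA7 effect of Elovl2 (0.32).

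Fatty acid breakdown fell in DDC7 and had few calls in CsA7. Of 25 genes of fatty acid oxidation under PPARA, 3 were higher and 15 lower in DDC7 and 1 was higher and 0 lower in CsA7, against 24.4% of all genes lower in DDC7 and 2.18% higher in CsA7, so that the CsA7 count is near its background. With total-count scaling 4 were higher and 11 lower in DDC7 and 2 higher in CsA7. The gene higher in CsA7 as deposited was Ppara itself (ENSMUSG00000022383), the receptor that drives oxidation in fasting. It had 169, 129, 148 and 129 in DDC7, against 536, 510.0, 445 and 372 in CTLD. It had 620.5, 561, 611 and 601 in CsA7, against 395, 401, 375 and 437 in VEHICLE. DDC7 was below every CTLD library and CsA7 above every VEHICLE library, with effects of -1.68 ± 0.11 (adjusted p = 2.43e-10) and 0.57 ± 0.11 (adjusted p = 0.00433) and a model difference of -2.26 ± 0.15 (adjusted p = 3.88e-09). Fabp1, the fatty acid binding protein and a PPARA target, fell in DDC7 (effect -3.14 ± 0.11, adjusted p = 2.54e-14) and had a CsA7 effect of -0.00 ± 0.11 (adjusted p = 0.987). Gys2, the glycogen synthase of liver, and Klf10, a transcription factor tied to the clock and to glucose, were named after their values were seen. Gys2 had effects of -0.69 ± 0.18 (adjusted p = 0.00368) and 0.68 ± 0.18 (adjusted p = 0.0351), with the CsA7 call lost without CsA7 replicate 3 or 4 or VEHICLE replicate 1, 2 or 3 (0.52 to 0.71). Klf10 had effects of -0.93 ± 0.22 (adjusted p = 0.00166) and 0.93 ± 0.22 (adjusted p = 0.0189), with the CsA7 call lost without CsA7 replicate 1, 3 or 4 or VEHICLE replicate 2 (0.82 to 0.89). Leaving out VEHICLE replicates 1 and 2 ended the call of the CsA7 effect of Gys2 (0.74) and the CsA7 effect of Klf10 (0.83). With total-count scaling the call was lost for the DDC7 effect of Gys2 (-0.35).

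A few interferon-linked genes were lower in DDC7 and higher in CsA7, while the shares of their lists lower in DDC7 were near or below that of all genes. Of 16 interferon response genes, 2 were higher and 2 lower in DDC7 and 5 were higher and 0 lower in CsA7, and the model difference was lower for 5 and higher for 1. The share lower in DDC7 was below the 24.4% of all genes, and with total-count scaling 5 were higher and 2 lower in DDC7 and 7 higher in CsA7. Of 15 interferon-inducible GTPases, 2 were higher and 5 lower in DDC7, where 24.4% of all genes were lower, and 2 were higher and 0 lower in CsA7. With total-count scaling 3 GTPases were higher and 1 lower in DDC7 and 5 were higher in CsA7. The DDC7 median of the GTPases was -0.21, and 0.11 with total-count scaling. In CsA7, 0 GTPases were higher without VEHICLE replicate 2 or 4, 1 without replicate 3 and 4 without replicate 1.

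Apol9b is shown with its start region, chr15:77728822-77729121 (+) from RefSeq on GRCm38.p6, from 250 bases before to 50 after the start. Capitals mark a pair of overlapping matches of TTTC and TTTC with 2 open bases between them, the core of the element that interferon-stimulated factors bind, read on either strand.
Apol9b: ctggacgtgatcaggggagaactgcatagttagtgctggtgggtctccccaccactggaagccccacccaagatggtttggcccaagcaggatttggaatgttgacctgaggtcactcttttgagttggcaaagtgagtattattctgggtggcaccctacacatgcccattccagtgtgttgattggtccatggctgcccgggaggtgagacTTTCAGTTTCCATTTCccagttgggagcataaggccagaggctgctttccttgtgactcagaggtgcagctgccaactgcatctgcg
The core was in 3.44% of all windows and in 5 of the 28 genes lower in DDC7 and higher in CsA7 that had a window (17.9%), against 3.99% of all genes with a window. That background takes in genes that were not tested, and the share among tested genes alone was not computed. The 5 were Apol9a, Apol9b, Bdnf, Igtp and Irf2. Apol9b (ENSMUSG00000068246) and Apol9a are close copies of an interferon-induced apolipoprotein L gene, and reads may be divided between them by the counting. Apol9b had 92.2, 83.1, 79.7 and 76.5 in DDC7, against 137, 147, 180.1 and 135 in CTLD. It had 165, 168, 197 and 117 in CsA7, against 58.6, 109, 93 and 101 in VEHICLE. The groups were apart in both models, by effects of -0.84 ± 0.17 (adjusted p = 0.000495) and 0.85 ± 0.17 (adjusted p = 0.00793). Apol9a had effects of -0.64 ± 0.21 (adjusted p = 0.0176) and 0.78 ± 0.21 (adjusted p = 0.0396). Its DDC7 call ended without DDC7 replicate 2 or 4 or CTLD replicate 2 (-0.58 to -0.46) and its CsA7 call without CsA7 replicate 2 or 3 or VEHICLE replicate 1, 2, 3 or 4 (0.57 to 0.83). Igtp, a GTPase that acts against intracellular parasites, had effects of -0.53 ± 0.20 (adjusted p = 0.0318) and 0.75 ± 0.20 (adjusted p = 0.0347). Its DDC7 call ended without DDC7 replicate 3 or 4 or CTLD replicate 2 or 4 (-0.54 to -0.43) and its CsA7 call without CsA7 replicate 2 or 3 or VEHICLE replicate 2, 3 or 4 (0.58 to 0.78). After VEHICLE replicates 1 and 2 were left out, no call was made for the CsA7 effect of Apol9a (0.81) and the CsA7 effect of Igtp (0.80). Total-count scaling ended the call of the DDC7 effect of Apol9a (-0.29) and the DDC7 effect of Igtp (-0.19).

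Some interferon response genes were called in CsA7 and not in DDC7 with the 16 libraries fitted together as deposited. Ifi44, an antiviral protein gene, had 60.7, 80.9, 151 and 46.5 in CsA7, against 28.7, 32.4, 9.85 and 25.5 in VEHICLE, with a CsA7 effect of 1.75 ± 0.38 (adjusted p = 0.0162), a DDC7 effect of -0.09 ± 0.38 (adjusted p = 0.868) and a model difference of -1.84 ± 0.54 (adjusted p = 0.0179). Ifit3, an interferon-induced antiviral gene, had a CsA7 effect of 1.23 ± 0.28 (adjusted p = 0.0145), lost without CsA7 replicate 3 (1.01), a DDC7 effect of -0.50 ± 0.28 (adjusted p = 0.147) and a model difference of -1.72 ± 0.39 (adjusted p = 0.00274). Isg15, the ubiquitin-like modifier, had a CsA7 effect of 0.84 ± 0.20 (adjusted p = 0.0189), lost without CsA7 replicate 3 or VEHICLE replicate 4 (0.61 to 0.75), and a DDC7 effect of 0.40 ± 0.20 that missed the threshold (adjusted p = 0.0989) but passed without CsA7 replicate 3 (0.40). With each model fitted apart, limma called the DDC7 effect of Isg15 (adjusted p = 0.0252) and not its CsA7 effect (adjusted p = 0.0893). Its DDC7 effect was also called with total-count scaling (0.75, adjusted p = 0.00595). Its CsA7 call was lost with all 36 libraries in the limma fit (adjusted p = 0.115) and with a block on title numbers (0.68, adjusted p = 0.076). Without the pair of VEHICLE replicates 1 and 2, the CsA7 effect of Ifit3 (1.15) had no call.

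Of the other genes lower in DDC7 and higher in CsA7, Gabbr2 (ENSMUSG00000039809), a subunit of the metabotropic GABA receptor, had 37.8, 43.1, 37.9 and 29.7 in DDC7, against 119.6, 97.1, 90.0 and 69.8 in CTLD. It had 157, 119, 153 and 163 in CsA7, against 114, 94.4, 93 and 83.1 in VEHICLE. The effects were -1.31 ± 0.16 (adjusted p = 1.46e-06) and 0.62 ± 0.16 (adjusted p = 0.0308), and the CsA7 call ended without CsA7 replicate 1, 3 or 4 or VEHICLE replicate 2, 3 or 4 (0.55 to 0.61). Tnks1bp1, which binds tankyrase, had effects of -0.94 ± 0.19 (adjusted p = 0.000429) and 0.71 ± 0.19 (adjusted p = 0.0369), and the CsA7 call ended without CsA7 replicate 1, 3 or 4 or VEHICLE replicate 1, 2 or 3 (0.61 to 0.75). A fit without VEHICLE replicates 1 and 2 did not call the CsA7 effect of Tnks1bp1 (0.68).

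**Figure D3:**
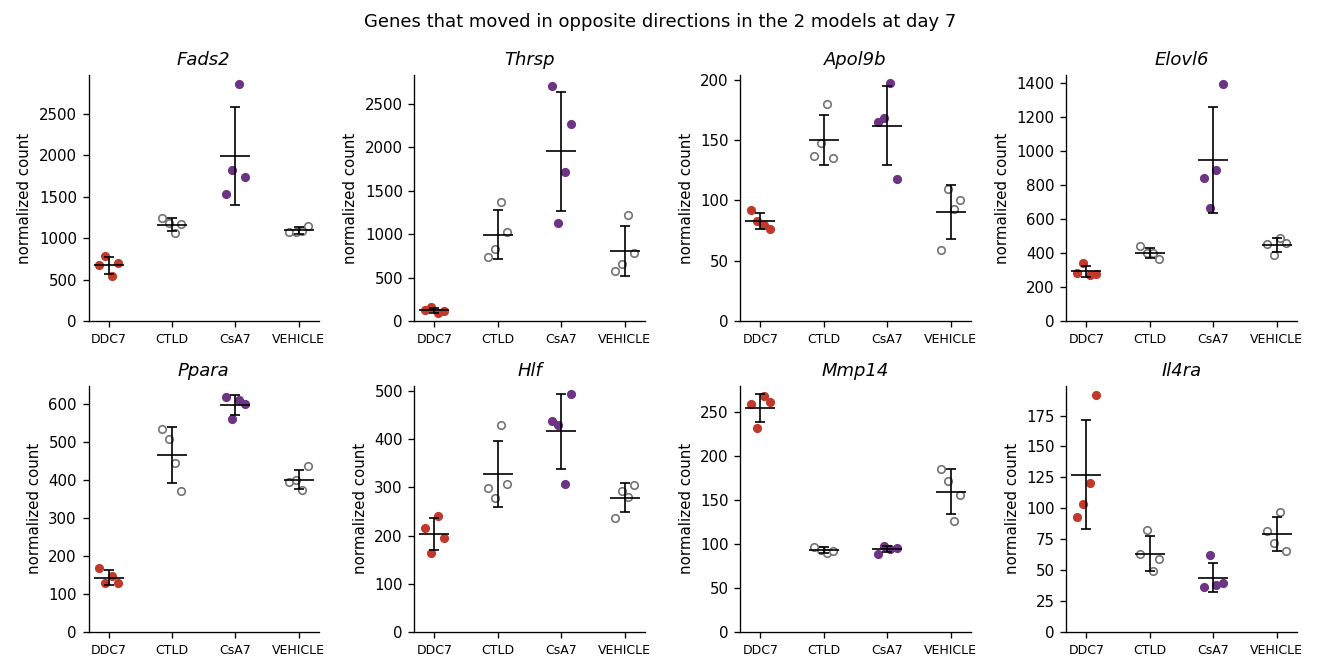
Normalized counts of 8 genes in the 4 libraries of DDC7, CTLD, CsA7 and VEHICLE; filled points are treated mice, open points are controls, and bars are the mean ± SD. Fads2, Thrsp, Apol9b, Elovl6, Ppara and Hlf were lower in DDC7 than in CTLD and higher in CsA7 than in VEHICLE, and Mmp14 and Il4ra were the reverse.

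Of the 20 genes higher in DDC7 and lower in CsA7, 8 were named by the rule, and Mmp14 is given first. Mmp14 (ENSMUSG00000000957), a membrane-bound matrix protease, had 259.9, 232, 268 and 261 in DDC7, against 97.3, 93.9, 90.0 and 92.7 in CTLD. It had 89.1, 97.8, 95 and 96 in CsA7, against 185, 172, 126 and 156 in VEHICLE. The effects were 1.44 ± 0.11 (adjusted p = 2.63e-09) and -0.74 ± 0.11 (adjusted p = 0.000496), and the model difference of 2.18 ± 0.15 (adjusted p = 7.23e-09) was called. The controls themselves differed for this gene, with CTLD minus VEHICLE at -0.75 ± 0.11 (adjusted p = 0.00573), and the CsA7 libraries covered much the same range as the CTLD libraries. Control levels differed for 2 of these 20 genes, both lower in CTLD (0.0430% of all genes were lower), and for 1 of the 43 genes of the other opposite class, which was higher in CTLD (0.0258% of all genes were higher). Fibroblast and matrix markers rose with the DDC diet as a list (17 of 19 higher in DDC7, 1 in CsA7), and their summed count was 3087 to 3914 in DDC7, against 1800.3 to 2145 in CTLD, and 1814 to 2713 in CsA7, against 1656 to 1938 in VEHICLE. The part of those cells in these values was not tested.

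Pdgfc, a platelet-derived growth factor, had 55.9, 55.1, 78.7 and 60.2 in DDC7, against 33.5, 19.4, 22.2 and 26.2 in CTLD. It had 20.2, 15, 15.3 and 15.2 in CsA7, against 26.3, 25, 23 and 37.5 in VEHICLE. Its DDC7 effect of 1.28 ± 0.21 (adjusted p = 3.49e-05) held without any 1 library, and its CsA7 effect of -0.72 ± 0.21 (adjusted p = 0.0497) lost its call without DDC7 replicate 1, 2, 3 or 4, CTLD replicate 3 or 4, CsA7 replicate 2, 3 or 4 or VEHICLE replicate 1, 2, 3 or 4 (-0.80 to -0.57). Il4ra (ENSMUSG00000030748), the receptor of interleukins 4 and 13, had 92.9, 104, 121 and 191 in DDC7, against 62.8, 82.6, 49.6 and 58.9 in CTLD. It had 36.4, 62.1, 38.3 and 39.6 in CsA7, against 81.4, 72.2, 97.4 and 65.7 in VEHICLE. The groups were apart, by effects of 0.96 ± 0.22 (adjusted p = 0.00112) and -0.85 ± 0.22 (adjusted p = 0.0292), and the CsA7 call ended without CsA7 replicate 1, 3 or 4 or VEHICLE replicate 1, 2 or 3 (-0.89 to -0.74). Kifc3 (ENSMUSG00000031788), a kinesin motor of epithelial junctions, had 175, 186, 208 and 192 in DDC7, against 118, 118, 119 and 112 in CTLD. It had 62.8, 58.3, 57.5 and 45.7 in CsA7, against 76.6, 90.7, 152 and 117 in VEHICLE. Its effects were 0.70 ± 0.16 (adjusted p = 0.00107) and -0.91 ± 0.16 (adjusted p = 0.00217), with no overlap in either model. With VEHICLE replicates 1 and 2 left out, the call was lost for the CsA7 effect of Pdgfc (-0.81) and the CsA7 effect of Il4ra (-0.88). With total-count scaling the call was lost for the CsA7 effect of Pdgfc (-0.59) and the CsA7 effect of Il4ra (-0.72).

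Further members of this class were Rnf144a and Lnx2, both ubiquitin ligases, Dtx4, a regulator of Notch, Plekha1, which binds membrane phosphoinositides, and Cyp3a13, a drug-metabolising cytochrome. Rnf144a had effects of 0.97 ± 0.19 (adjusted p = 0.000311) and -0.81 ± 0.19 (adjusted p = 0.0196), with the CsA7 call lost without CsA7 replicate 4 (-0.70). Lnx2 had effects of 0.75 ± 0.14 (adjusted p = 0.000207) and -0.57 ± 0.14 (adjusted p = 0.0256), with the CsA7 call lost without CsA7 replicate 3 or 4 or VEHICLE replicate 1 or 2 (-0.56 to -0.47). Dtx4 had effects of 0.67 ± 0.24 (adjusted p = 0.0291) and -0.93 ± 0.24 (adjusted p = 0.033). Its DDC7 call ended without DDC7 replicate 4 or CTLD replicate 4 (0.44 to 0.47) and its CsA7 call without CsA7 replicate 1, 3 or 4 or VEHICLE replicate 1, 2 or 3 (-0.95 to -0.74). Plekha1 had effects of 0.90 ± 0.16 (adjusted p = 0.000142) and -0.57 ± 0.16 (adjusted p = 0.0492), with the CsA7 call lost without DDC7 replicate 1, 2, 3 or 4, CTLD replicate 3 or 4, CsA7 replicate 1, 3 or 4 or VEHICLE replicate 1, 2, 3 or 4 (-0.64 to -0.45). Cyp3a13 had effects of 0.52 ± 0.12 (adjusted p = 0.0012) and -0.43 ± 0.12 (adjusted p = 0.0393), with the CsA7 call lost without DDC7 replicate 1, CsA7 replicate 1, 2 or 4 or VEHICLE replicate 1 or 2 (-0.45 to -0.34). After VEHICLE replicates 1 and 2 were left out, no call was made for the CsA7 effect of Rnf144a (-0.79), the CsA7 effect of Lnx2 (-0.41), the CsA7 effect of Dtx4 (-0.95), the CsA7 effect of Plekha1 (-0.49) and the CsA7 effect of Cyp3a13 (-0.20). Scaling by total counts ended the call of the CsA7 effect of Rnf144a (-0.67), the CsA7 effect of Lnx2 (-0.44), the CsA7 effect of Dtx4 (-0.80), the CsA7 effect of Plekha1 (-0.44) and the CsA7 effect of Cyp3a13 (-0.30).

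Of the 12 genes with the highest and lowest model differences, Dbp was called in CsA7 alone, and the other 11 were called in DDC7 alone. These calls are by limma with the 16 libraries as deposited. With total-count scaling Dbp was called in DDC7 too (1.23). Hsd3b5 (ENSMUSG00000038092), a male-specific steroid dehydrogenase, had 0, 0.799, 0.997 and 0 in DDC7, against 556, 512, 472 and 565 in CTLD. It had 509, 508, 258 and 446 in CsA7, against 328, 387, 598 and 532 in VEHICLE. Expression was nearly lost in DDC7, while CsA7 and VEHICLE overlapped, and the model difference was -8.47 ± 0.38 (adjusted p = 8.12e-10). Slco1a1, an uptake transporter of bile salts and steroids, had a DDC7 effect of -5.82 ± 0.34 (adjusted p = 3.03e-08), a CsA7 effect of 0.19 ± 0.34 (adjusted p = 0.833) and a model difference of -6.01 ± 0.48 (adjusted p = 3.14e-06). Slc22a28, an organic anion transporter, had a model difference of -5.46 ± 0.51 (adjusted p = 3.37e-07) and Sult2a8, a bile acid sulfotransferase of mouse liver, -4.97 ± 0.47 (adjusted p = 1.04e-05). Elovl3, an elongase of long-chain fatty acids and male-biased, had 21.8, 20.8, 9.97 and 12.7 in DDC7, against 2469, 2718, 2533 and 2802 in CTLD. It had 874, 1207, 132 and 366 in CsA7, against 1851, 1793, 1648 and 2107 in VEHICLE. Both treated groups were below their controls. The DDC7 effect was -7.31 ± 0.53 (adjusted p = 2.57e-07), the CsA7 effect of -1.95 ± 0.53 missed the threshold (adjusted p = 0.0596) and passed without CsA7 replicate 2 (-2.40), and the model difference was -5.36 ± 0.76 (adjusted p = 0.000259). The CsA7 fall of Elovl3 was also called by DESeq2 on recovered reads (-1.52, adjusted p = 0.0345) and with all 36 libraries in the limma fit (adjusted p = 0.0468).

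At the other end, Cyp2b10 (ENSMUSG00000030483), the classic target of the xenobiotic receptor CAR, had 1003, 972, 764 and 634 in DDC7, against 4.05, 9.71, 20.9 and 18.5 in CTLD. It had 28.3, 15, 51.4 and 31.2 in CsA7, against 35.9, 13, 20.8 and 21.5 in VEHICLE. The model difference was 5.66 ± 0.65 (adjusted p = 3.25e-05), and of 14 CAR and PXR targets 11 were higher in DDC7, 0 were higher and 1 was lower in CsA7. With total-count scaling 12 were higher in DDC7, and 3 were higher and 0 lower in CsA7. On recovered reads 2 were higher and 1 lower in CsA7 by edgeR, and 3 higher and 1 lower by DESeq2. Sprr1a, an epithelial stress protein gene, had 125, 182, 323 and 348 in DDC7, against 0, 0, 1.3 and 0 in CTLD. It had 1.01, 0, 7.66 and 0.762 in CsA7 and no read in VEHICLE, with a model difference of 6.28 ± 0.82 (adjusted p = 1.45e-05) that edgeR on recovered reads did not call (adjusted p = 0.970). Mmp12, the macrophage elastase, had 228, 242, 231 and 292 in DDC7, against 1.01, 1.62, 2.61 and 0 in CTLD. It had 5.06, 0, 32.2 and 1.52 in CsA7, against 1.2, 1.85, 0 and 2.68 in VEHICLE. Its model difference of 5.78 ± 1.09 (adjusted p = 0.00104) was not called by edgeR either (adjusted p = 0.195). Of the 16 monocyte and macrophage markers tested, 15 were higher in DDC7 and 0 in CsA7.

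Lcn2, Mt1 and Mt2 had high model differences that rest in part on the VEHICLE libraries. Lcn2, lipocalin 2, an acute-phase iron-binding protein, had 320.2, 237, 322 and 299 in DDC7, against 1.01, 4.86, 3.91 and 4.36 in CTLD. It had 5.06, 4.7, 6.9 and 1.52 in CsA7, against 851, 315, 4.38 and 0 in VEHICLE. Its model difference was 8.89 ± 2.36 (adjusted p = 0.0141). Mt2, a metallothionein that binds zinc, had 1652, 1476, 1772 and 2616 in DDC7, against 9.12, 16.2, 10.4 and 8.73 in CTLD. It had 86, 30.1, 111 and 48 in CsA7, against 7947, 539, 16.4 and 10.7 in VEHICLE, with a model difference of 8.75 ± 2.26 (adjusted p = 0.0121). Its close relative Mt1 had a model difference of 6.07 ± 1.72 (adjusted p = 0.0196). The CsA7 effects were -2.76 ± 1.67, -1.47 ± 1.60 and -0.48 ± 1.22 for Lcn2, Mt2 and Mt1, and 0 of them were called by limma. On recovered reads the CsA7 effect of Lcn2 was called by edgeR (-5.98, adjusted p = 0.0362) and DESeq2 (-6.01, adjusted p = 0.000288). Without VEHICLE replicates 1 and 2 the CsA7 effects of Mt2 and Mt1 were 2.12 and 2.28 and were called (adjusted p = 0.0281 and 0.0119), while that of Lcn2 was 1.14 and was not (adjusted p = 0.308). The model differences without those libraries were 4.98 for Lcn2, 5.16 for Mt2 and 3.32 for Mt1 (adjusted p = 0.000226, 0.000106 and 0.0011), below the 6.28 of Sprr1a and the 5.64 of Cyp2b10.

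Of 21 NRF2 targets, 16 were higher and 1 lower in DDC7 and 0 were called in CsA7, with the model difference higher for 14. With total-count scaling 18 were higher and 1 lower in DDC7 and 4 higher and 0 lower in CsA7. By edgeR on recovered reads 1 was higher in CsA7. Srxn1, a sulfiredoxin, had a model difference of 2.55 ± 0.22 (adjusted p = 3.29e-07). Nqo1, a quinone reductase, had 89.3, 86.3, 116 and 105 in DDC7, against 11.2, 19.4, 7.83 and 13.1 in CTLD. It had 14.2, 12.2, 23 and 22.9 in CsA7, against 10.8, 7.4, 10.9 and 9.39 in VEHICLE. Its CsA7 libraries were all above VEHICLE, but the effect of 0.81 ± 0.26 missed the threshold (adjusted p = 0.0788) and passed without CsA7 replicate 2 (0.97). In limma the effect also passed with total-count scaling (0.93, adjusted p = 0.0384) and with all 36 libraries in the fit (adjusted p = 0.0394). The DDC7 effect was 2.91 ± 0.26 (adjusted p = 2.31e-08) and the model difference 2.10 ± 0.37 (adjusted p = 0.000275). Spp1, osteopontin, a product of duct cells and macrophages, had a model difference of 3.39 ± 0.26 (adjusted p = 1.76e-07), and Col1a1, the main collagen of scar, 2.89 ± 0.53 (adjusted p = 0.000997). Mki67, a marker of dividing cells, had 53.7, 67.9, 43.8 and 96.3 in DDC7, against 11.2, 8.09, 7.83 and 6.55 in CTLD. It had 6.07, 3.76, 35.3 and 7.62 in CsA7, against 9.57, 5.55, 7.66 and 6.7 in VEHICLE. CsA7 replicate 3 was well above the other CsA7 libraries, and the model difference was 2.48 ± 0.63 (adjusted p = 0.00609), which edgeR did not call (2.05, adjusted p = 0.0921). Of 20 cell cycle genes, 18 were higher in DDC7 and 1 in CsA7.

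Slc10a1, the main bile salt uptake carrier, had effects of -1.82 ± 0.13 (adjusted p = 5.72e-09) and 0.18 ± 0.13 (adjusted p = 0.52), with a model difference of -1.99 ± 0.19 (adjusted p = 7.97e-07). Abcc4, which exports bile acids to blood, had effects of 2.53 ± 0.31 (adjusted p = 1.67e-06) and 0.65 ± 0.31 (adjusted p = 0.25), with a model difference of 1.87 ± 0.44 (adjusted p = 0.00351). Alas1, the first enzyme of heme synthesis, was called in neither (effects -0.66 ± 0.43 and -0.61 ± 0.43), though it passed in DDC7 without CTLD replicate 2 (-1.02). The plot of effects by gene list sets these groups side by side.

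**Figure D4:**
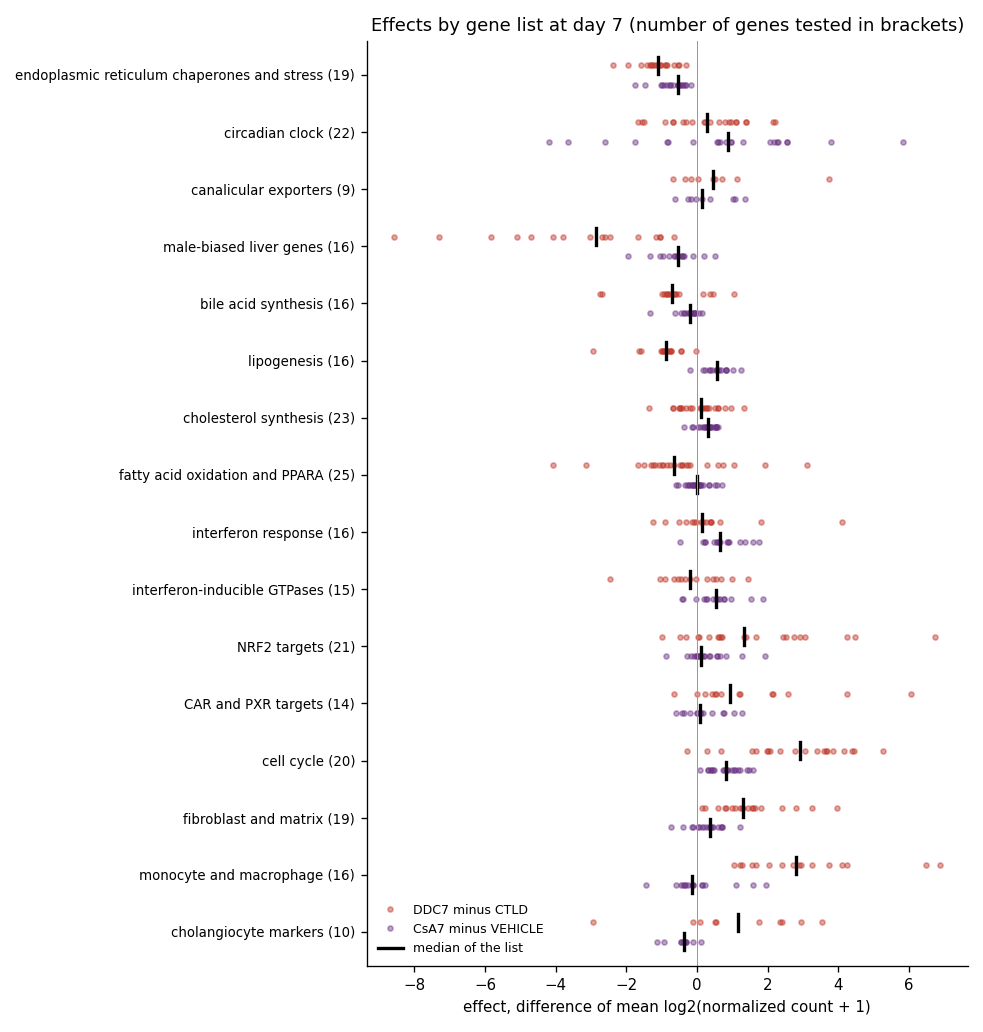
Each small point is the effect of a tested gene in DDC7 (upper line of each list) or CsA7 (lower line), as a difference of mean log2(normalized count + 1), and black bars are list medians. By its medians the ER list lies below 0 in both models (-1.10 and -0.55), and lipogenesis lies on opposite sides (-0.88 and 0.57). NRF2 targets and macrophage markers have medians of 1.32 and 2.80 in DDC7, against 0.11 and -0.13 in CsA7.

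Bile duct ligation for 7 days (BDL7, 4 mice) against sham surgery (SHAM, 4 mice) offered libraries that did not choose these genes and share no control with them. Over all 11616 genes, 2317 were higher (19.9%) and 2509 lower (21.6%) in BDL7. Of the 112 genes higher in both DDC7 and CsA7, 54 were higher and 9 lower in BDL7. Of the 176 lower in both, 106 were lower and 1 was higher. The 20 genes higher in DDC7 and lower in CsA7 had 10 higher and 1 lower in BDL7, and the 43 lower in DDC7 and higher in CsA7 had 23 lower and 1 higher, so that more of the opposite genes were called on the side of DDC7. The median BDL7 effects were 0.32, -0.48, 0.56 and -0.42 in that order of classes, against -0.01 for all genes. Every gene of these classes was chosen by a DDC7 call. The share of all DDC7-called genes that BDL7 called on the same side was not computed.

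Of the 19 ER genes, 5 were lower and 0 higher in BDL7, with a median effect of -0.25, against 21.6% of all genes lower. The ER genes first described above were not called there, with BDL7 effects of -0.26 ± 0.23 (adjusted p = 0.437) for Hspa5, -0.40 ± 0.31 (adjusted p = 0.353) for Sdf2l1 and -0.33 ± 0.46 (adjusted p = 0.628) for Creld2. Of the 22 clock genes, 9 were higher and 8 lower in BDL7, against 19.9% and 21.6% of all genes. Whether the lists differed from each other in BDL7 was not tested. Cry1 had 47.6, 25.4, 20.9 and 21.4 in BDL7, against 103, 117, 114 and 122 in SHAM, an effect of -2.03 ± 0.22 (adjusted p = 2.12e-06). Nfil3 had an effect of -1.67 ± 0.16 (adjusted p = 1.26e-07), Per3 of 2.20 ± 0.50 (adjusted p = 0.00319) and Wee1 of 1.78 ± 0.23 (adjusted p = 1.32e-05). Dbp, called in DDC7 only with total-count scaling, rose in BDL7 by 2.68 ± 0.40 (adjusted p = 4.35e-05). Among the opposite genes, Ppara fell in BDL7 (effect -1.21 ± 0.14, adjusted p = 7.71e-06), Thrsp fell (-1.53 ± 0.17, adjusted p = 8.57e-05), Fads2 fell (-0.42 ± 0.09, adjusted p = 0.00133) and Mmp14 rose (1.53 ± 0.11, adjusted p = 3.1e-09), as in DDC7. Apol9b was not called (effect -0.36 ± 0.19, adjusted p = 0.152).

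**Figure D5:**
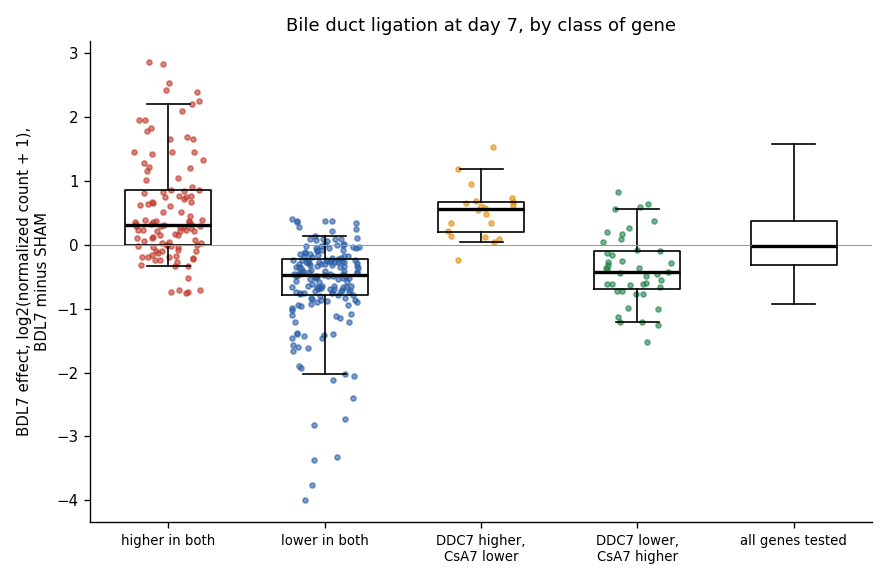
Effect of bile duct ligation at day 7 (BDL7 minus SHAM, difference of mean log2(normalized count + 1)) for the genes of each class and for all genes tested. Points are genes, boxes span the quartiles with the median as a bar, and whiskers span the 5th to 95th percentiles; medians are 0.32, -0.48, 0.56 and -0.42 for the 4 classes and -0.01 for all genes.

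Levels at 28 days are given as a description, since day 28 was not part of the test. Hspa5 averaged 2224 ± 252 normalized counts in DDC28 and 7068 ± 1483 in CTLD, and 4396 ± 1878 in CsA28 and 5934 ± 733 in VEHICLE (SD, n = 4 each). Nfil3 averaged 34.8 ± 15.8 in DDC28 and 180.1 ± 18.8 in CTLD, and 117 ± 34.8 in CsA28 and 173 ± 38.8 in VEHICLE. Dbp averaged 68 ± 23.8 in DDC28 and 3.22 ± 1.54 in CTLD, and 14 ± 20.0 in CsA28 and 3.41 ± 2.23 in VEHICLE. Fads2 averaged 599.9 ± 108 in DDC28 and 1164 ± 76.1 in CTLD, and 1434 ± 354 in CsA28 and 1094 ± 37.6 in VEHICLE. Ppara averaged 197 ± 23 in DDC28 and 466 ± 73.3 in CTLD, and 443 ± 49.4 in CsA28 and 402 ± 25.8 in VEHICLE.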

How the data were processed

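Liver RNA from 36 mice in 9 groups of 4 was made into 3′ tag libraries with unique molecular identifiers (QuantSeq 3′ mRNA FWD kit), per the labels' protocols. The authors deposited 1 table of normalized counts, a signal in which gene counts are divided by 1 factor per library. Build GRCm39, STAR 2.7.9a, UMI-tools 1.1.1, DESeq2, RSEM 1.3.1 and Trim Galore are named per the submitters' processing notes, without their order. Dividing by the step of each library gave whole reads for 100% of values, within 0.001 read. Of the 29546 IDs, 29121 had a symbol in GENCODE M21.

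The 16 libraries of DDC7, CTLD, CsA7 and VEHICLE were fitted together on log2(value + 1) in limma 3.58.1 (R 4.3.3, trend and robust), with 2-sided Benjamini-Hochberg adjusted p-values over the 11616 genes that reached 10 in 4 or more libraries. A pseudocount of 1 understates changes of low genes. BDL7 and SHAM were fitted apart. Alternatives were edgeR 4.0.16 and DESeq2 1.42.0 on recovered reads, other scalings, filters and pseudocounts, a replicate block and each library left out. Scripts were tested on simulated data.

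The members and gene lists were chosen with earlier results of these data known. Named genes were, per class, up to 8 by the smaller of both absolute effects among genes whose libraries did not overlap in either model and whose mean was at least 50 in a group. To these came the 6 highest and 6 lowest model differences, 20 anchor genes and, from each list described, up to 4 genes by the adjusted p of the model difference. Genes outside the rule are said to be chosen after their values were seen. The anchor Krt19 did not pass the filter, and some genes that the rule took are not reported here. The labels do not say more of the animals, so p-values measure the spread between these samples. Depth ran from 2081093 to 3770267 reads, which limits genes with few reads. Promoter sequences are from RefSeq on GRCm38.p6, a build other than that of the table.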

Additional observations from a re-analysis of the deposited data

Results flagged for a closer look

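Single libraries lay far from the other 3 of their group for 21 gene and group pairs, by the gap to the nearest library over the range of the group. Chance gives about 1 in 20 groups such a library, and 403 groups were examined, of which 5.21% had one. The share found was close to that rate. All groups come from the same 16 libraries and are not independent, so the share cannot tell whether these libraries arose by chance. All values are normalized counts.

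CsA7 replicate 3 was the high library for 5 genes, with 32.2 for Ckap2l, 32.2 for Mmp12, 88.9 for Col1a1, 35.3 for Mki67 and 7.66 for Sprr1a. CsA7 replicate 2 stood apart with 713 for Pdia3 and 62.1 for Il4ra, and CsA7 replicate 1 with 20.2 for Pdgfc and 52.6 for Cirbp.

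VEHICLE replicate 1 stood apart with 4849 for Hspa5, 7947 for Mt2 and 6502 for Mt1. VEHICLE replicate 3 did so with 71.1 for Abcg8, and VEHICLE replicate 4 with 264 for Nampt and 1628 for Slc10a1.

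DDC7 replicate 4 stood apart with 123 for Dtx4, 87.1 for Abcc4, 312 for Defb1 and 195 for Ulk1, and DDC7 replicate 1 with 929 for Spp1. CTLD replicate 3 had 1.3 for Sprr1a, where the other CTLD libraries had 0.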

How the results depend on the processing

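The counts of genes called in DDC7 and in the model difference kept within 1.5 times of the values as deposited under the alternatives run. The smaller CsA7 response did not. CsA7 calls numbered 831 with total-count scaling, 324 without trend or robust fitting and 263 with each model fitted apart. Genes called in both in the same direction numbered 526, 166 and 154 in that order, and those in opposite directions 34 without trend, 30 fitted apart and 32 without VEHICLE replicates 1 and 2, a setting chosen after the data were seen. Calls between CTLD and VEHICLE numbered 4 with a filter on at least 8 libraries, 5 with total-count scaling, 0 without trend or robust fitting in limma, 5 by edgeR, 26 by DESeq2 and 3 without VEHICLE replicates 1 and 2. The cause was not tested.

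With 1 library left out, calls ranged over 4952 to 5759 in DDC7, 269 to 545 in CsA7, 2819 to 3288 in the model difference, 4239 to 5105 between treated levels and 2 to 13 between controls. Same-direction genes ranged over 158 to 292 and opposite genes over 21 to 62. Of the same-direction genes found with all libraries, 140 to 171 were called on the same side in BDL7 without 1 BDL7 or SHAM library. Of named genes called with all libraries, 9 of 92 DDC7 calls, 34 of 75 CsA7 calls and 3 of 70 model differences were lost without at least 1 library. All 36 libraries in the fit ended 5, 18 and 4 of them in that order of effects, and fitting without trend ended 4, 20 and 1. The CsA7 calls lost numbered 30 with each model fitted apart and 7 by edgeR. The DDC7 effect of Nsdhl reversed with total-count scaling (0.032), and the CsA7 effects of Mt2 (2.12) and Mt1 (2.28) without VEHICLE replicates 1 and 2.

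Libraries with the same number in their descriptions did not deviate together, and 0 of 12 pairs had a correlation above 0.1. The titles carry other numbers, and 0 of the 10 pairs that share one had a correlation above 0.1 either (-0.061 to 0.062). With a replicate block on the description numbers, 5443 genes were called in DDC7, 436 in CsA7, 3133 in the model difference, 225 in the same and 48 in opposite directions. A replicate block on the title numbers, chosen after the data were seen, gave 5620 in DDC7, 252 in CsA7, 2972 in the model difference, 155 in the same and 24 in opposite directions and 0 between controls by limma, and ended 33 of the 75 named CsA7 calls.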

Other observations

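A set of 5 cytosolic heat-shock genes, chosen after their values were seen, was lower in both models with the 16 libraries fitted. With all 36 libraries in the fit the CsA7 calls of Hsph1 (adjusted p = 0.0688), Dnajb1 (adjusted p = 0.536) and Hspb1 (adjusted p = 0.17) were lost, as was the DDC7 call of Dnajb1 (adjusted p = 0.0505). Hsph1, which helps Hsp70 exchange nucleotide, had effects of -3.37 ± 0.19 (adjusted p = 3.95e-10) in DDC7 and -1.18 ± 0.19 (adjusted p = 0.00194) in CsA7. Its normalized counts were 56.6, 54.3, 33.9 and 32.6 in DDC7, against 329, 497, 602 and 431 in CTLD, and 135, 159.8, 188 and 148 in CsA7, against 352, 367, 393 and 312 in VEHICLE. Hspa8, the constitutive Hsp70, had effects of -1.50 ± 0.10 (adjusted p = 2.64e-10) and -0.60 ± 0.10 (adjusted p = 0.00116). Hsp90aa1, the inducible cytosolic Hsp90, had effects of -1.23 ± 0.12 (adjusted p = 1.37e-07) and -0.92 ± 0.12 (adjusted p = 0.000202), and Dnajb1, an Hsp40, of -1.33 ± 0.16 (adjusted p = 1.41e-06) and -0.74 ± 0.16 (adjusted p = 0.0124). Hspb1, a small heat-shock protein, had effects of -1.49 ± 0.24 (adjusted p = 0.000135) and -1.07 ± 0.24 (adjusted p = 0.0209), and its CsA7 call ended without CsA7 replicate 3 or 4 or VEHICLE replicate 2 or 3 (-1.03 to -0.94). Cirbp, an RNA-binding protein induced by cold and lowered by heat in other cells, moved the other way, with effects of 2.68 ± 0.26 (adjusted p = 7.81e-08) and 0.95 ± 0.26 (adjusted p = 0.0384). Its CsA7 call ended without CsA7 replicate 1, 2, 3 or 4 or VEHICLE replicate 1, 2 or 3 (0.80 to 1.00). In BDL7 Hspa1b had an effect of -1.60 ± 0.27 (adjusted p = 0.0015), Hsph1 had an effect of -1.46 ± 0.36 (adjusted p = 0.0166) and Cirbp of 1.02 ± 0.21 (adjusted p = 0.000701). With VEHICLE replicates 1 and 2 left out, the call was lost for the CsA7 effect of Cirbp (0.73).

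The 9 genes that were higher in both DDC7 and CsA7 but lower in BDL7 included Ulk1 and Gabarapl1, which start and complete autophagosomes, Fbxo21, a ubiquitin ligase component, and Ppp3ca, the catalytic subunit of calcineurin that cyclosporin inhibits. They were chosen after their values were seen. Ulk1 had effects of 0.59 ± 0.19 (adjusted p = 0.0171) in DDC7, 0.98 ± 0.19 (adjusted p = 0.00794) in CsA7 and -0.76 ± 0.12 (adjusted p = 3.6e-05) in BDL7, and its DDC7 call ended without DDC7 replicate 4 or CTLD replicate 3 (0.47 to 0.48). Gabarapl1 had effects of 0.44 ± 0.10 (adjusted p = 0.00129), 0.39 ± 0.10 (adjusted p = 0.0305) and -0.53 ± 0.09 (adjusted p = 0.00016), and its CsA7 call ended without CsA7 replicate 3 or 4 or VEHICLE replicate 2 or 3 (0.30 to 0.39). Fbxo21 had effects of 0.83 ± 0.18 (adjusted p = 0.00119), 0.78 ± 0.18 (adjusted p = 0.0213) and -0.71 ± 0.13 (adjusted p = 0.000469), and its CsA7 call ended without CsA7 replicate 1 or 4 or VEHICLE replicate 1 or 3 (0.69 to 0.74). Ppp3ca had effects of 0.34 ± 0.08 (adjusted p = 0.00128), 0.28 ± 0.08 (adjusted p = 0.0393) and -0.23 ± 0.07 (adjusted p = 0.0193), and its CsA7 call ended without DDC7 replicate 1, CsA7 replicate 1, 2 or 4 or VEHICLE replicate 1 or 2 (0.25 to 0.30). Its counts in BDL7 and SHAM were 417, 442, 471 and 463 in BDL7, against 533, 505, 544 and 516 in SHAM. The SHAM libraries were above every CTLD and VEHICLE library for this gene, whose counts were 491, 445, 408 and 438 in CTLD and 443, 434, 488 and 497 in VEHICLE. After VEHICLE replicates 1 and 2 were left out, no call was made for the CsA7 effect of Fbxo21 (0.70) and the CsA7 effect of Ppp3ca (0.20).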
